A study of Mus musculus with 4 samples.

Results

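The clustered protocadherins are 57 protein-coding genes, of 21887 in the RefSeq table used here, that lie in 3 tandem arrays on mouse chromosome 18 (build mm10). They were taken by symbol alone: 14 Pcdha genes between 36930285 and 37188897, 22 Pcdhb genes between 37264998 and 37521419, and 21 Pcdhg genes between 37661775 and 37841873. Open chromatin over the arrays and 100 kb to each side, a span of 1112 kb, was described from ATAC-seq peak lists. ATAC-seq marks open chromatin by where a transposase can insert sequencing adapters. Peaks from any of the 4 libraries were joined into a region where they shared 1 bp or more, which gave 30 regions in the span and 67299 in the genome.

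The tissue was the hypothalamic paraventricular nucleus (PVH) from Otp fl/fl; Ai14 mice at an age of 12 weeks, dissected 4 weeks after an injection of adeno-associated virus. Mice of the control group received AAV-GFP and those of the other group AAV-Cre, with 2 libraries in each group. All 4 libraries therefore carried the floxed Otp alleles and the Ai14 reporter, and Cre can delete Otp only in infected cells. Otp is a homeodomain transcription factor of hypothalamic neurons, and the series asked whether its loss lowers accessibility near its targets. No sorting of infected cells is named, and the labels do not say how many animals made a library, so their spread, and any p-value from it, may reflect technical variation. In such mixed nuclei, a site open in few cells and a site weakly open in many cannot be told apart.

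Clustered protocadherins are cell surface adhesion proteins that bind copies of themselves on neighbouring cells and give neurons a molecular identity used in self-avoidance. Each Pcdha and Pcdhg gene has its own promoter and variable exon, spliced to constant exons at the end of its array, whereas each Pcdhb gene is a lone exon. Neurons choose most of these promoters at random, with the help of the DNA-binding protein CTCF, the cohesin ring and distal enhancers. The 5 C-type genes, Pcdhac1, Pcdhac2, Pcdhgc3, Pcdhgc4 and Pcdhgc5, sit last in their arrays and are known for broader, less random use. Because the genes of an array share their last exons, each region was counted 1 time and a gene was assigned only the peaks within 1 kb of its own start.

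The lists held 57682 and 34100 peaks in the AAV-GFP libraries and 23384 and 26612 in the AAV-Cre libraries, and the read depth behind them is unknown. Cell type markers were read by peaks within 1 kb of either end of the gene, which 41.4% of all 21887 genes had in all 4 libraries and 3.09% in the controls alone. Such peaks were present in all 4 libraries at 5 of 8 neuronal and 1 of 7 PVH neuron markers, at 1 of 5 astrocyte markers (Gfap) and at 1 of 3 ependymal markers (Foxj1). For at least 1 library the share of all genes with an end peak was not computed, so the marker counts below have no genome share beside them. At gene starts alone that share was 55.7% of 17549 genes. In at least 1 library end peaks were present at 7, 6, 3 and 1 of the neuronal, PVH neuron, astrocyte and ependymal markers. They were also present at 3 of 6 oligodendrocyte and 1 of 2 oligodendrocyte precursor markers. None of 5 microglial and 4 endothelial markers had one, nor did Avp, the vasopressin gene of the PVH. In the controls alone they were found at 4 markers: Sim1 (folds 4.73 and 4.03) and Trh (6.38 and 4.63) of PVH neurons, Slc17a6 (4.95 and 5.96), the glutamate transporter of neurons, and Pdgfra (5.13 and 4.04) of oligodendrocyte precursors. Their part in the values of the protocadherin regions was not tested. Otp itself had end peaks with a fold of 3.73 and 4.22 in the controls and 5.52 in AAV-Cre 2, and none in AAV-Cre 1.

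Open chromatin seen in all 4 libraries lay at C-type genes, at a site in the shared part of Pcdha, and between and beyond the arrays. A start peak was present in all 4 libraries at 4 of the 57 genes, Pcdhac1, Pcdhac2, Pcdhgc3 and Pcdhgc4, which are 4 of the 5 C-type genes. Of the 52 other genes none had a start peak in all 4 libraries, and 4 had one in a lone library. Among the 17549 protein-coding genes whose strand was given or, for the members, assumed, 40.7% had a start peak in all 4 libraries. In at least 1 library 55.7% of them had one, against 8 of the 57 protocadherins, and 4.24% had one in a lone library. The plot of gene starts by library shows this order within each library. With AAV-GFP 1 left out, 5 of the 57 genes had a start peak in at least 1 library.

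**Figure D1:**
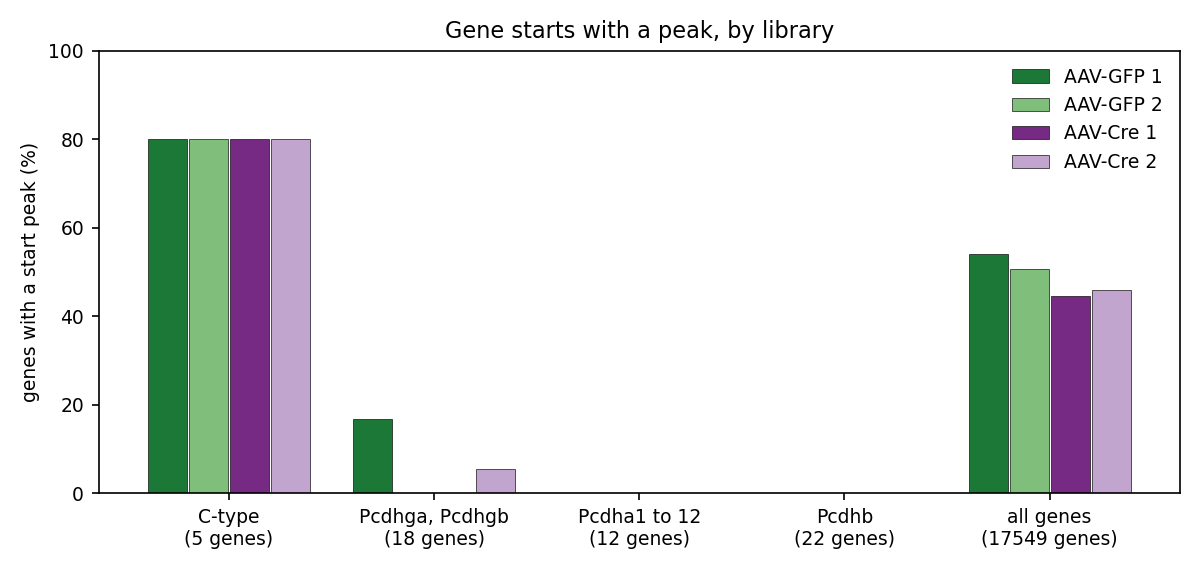
The share of genes with a peak within 1 kb of their start (vertical axis, percent) is drawn for each of the 4 libraries in 5 classes of genes. C-type genes stand at 80% in every library, the Pcdha1 to Pcdha12 and Pcdhb classes at 0%, and all protein-coding genes with a strand at 44.5% to 54.0%.

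Pcdhac1, the lower of the C-type genes of the Pcdha array, had a region at 37089725 to 37090343 that covers its start at 37090136. Its fold enrichment, the authors' ratio of summit signal to background, was 9.71 in AAV-GFP 1, 8.46 in AAV-GFP 2, 6.44 in AAV-Cre 1 and 9.39 in AAV-Cre 2. AAV-Cre 1 was the low library and the groups overlapped. The summits lay close together, at -155, -150, -158 and -143 bp from the start in the same order, where a negative value is outside the gene.

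Pcdhac2, the last variable gene before the shared Pcdha exons, had a broader and weaker region of 1110 bp at 37143393 to 37144502. The folds of its strongest peaks were 5.91 and 4.54 (AAV-GFP) against 4.08 and 5.21 (AAV-Cre), so the groups overlapped here too. The region held 2 separate peaks in AAV-GFP 2 and in AAV-Cre 2, and 1 in each of the other libraries. The summits of the strongest peaks were scattered over 209, 61, 235 and -101 bp from the start. With list length made equal, or with −log10 q held to 5 or more, Pcdhac2 no longer had a peak in all 4 libraries, while Pcdhac1, Pcdhgc3 and Pcdhgc4 did.

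Pcdhgc3, the C-type gene nearest the random-choice Pcdhg genes, had the highest folds of any protocadherin start in AAV-GFP 1, AAV-GFP 2 and AAV-Cre 1, while Pcdhac1 was higher in AAV-Cre 2. Its folds were 12.2 and 10.3 (AAV-GFP) against 7.94 and 6.97 (AAV-Cre), with no overlap between the groups. Both controls had higher folds than both AAV-Cre libraries at 53.6% of the 14634 regions shared by all libraries in the genome. The Pcdhgc3 region spans 37806154 to 37806679, and its summits lay at -56, -15, -55 and -35 bp from the start at 37806410. Fold is a value within each list, and ranks over a common set of regions are given further on.

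Pcdhgc4 had a region of 932 bp at 37814583 to 37815514 with nearly equal folds of 5.48, 5.13, 5.02 and 5.29. Its summits were at -60, -126 and -101 bp from the start in AAV-GFP 1, AAV-GFP 2 and AAV-Cre 2, and at 236 bp in AAV-Cre 1, where the peak began inside the gene. Pcdhgc5, the last gene of the array, had no start peak in any library, and the nearest region to its start, 4032 bp away, was that of Pcdhgc4. The drawing of peaks around the C-type starts shows the tight summits of Pcdhac1 and Pcdhgc3 beside the spread ones of Pcdhac2.

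**Figure D2:**
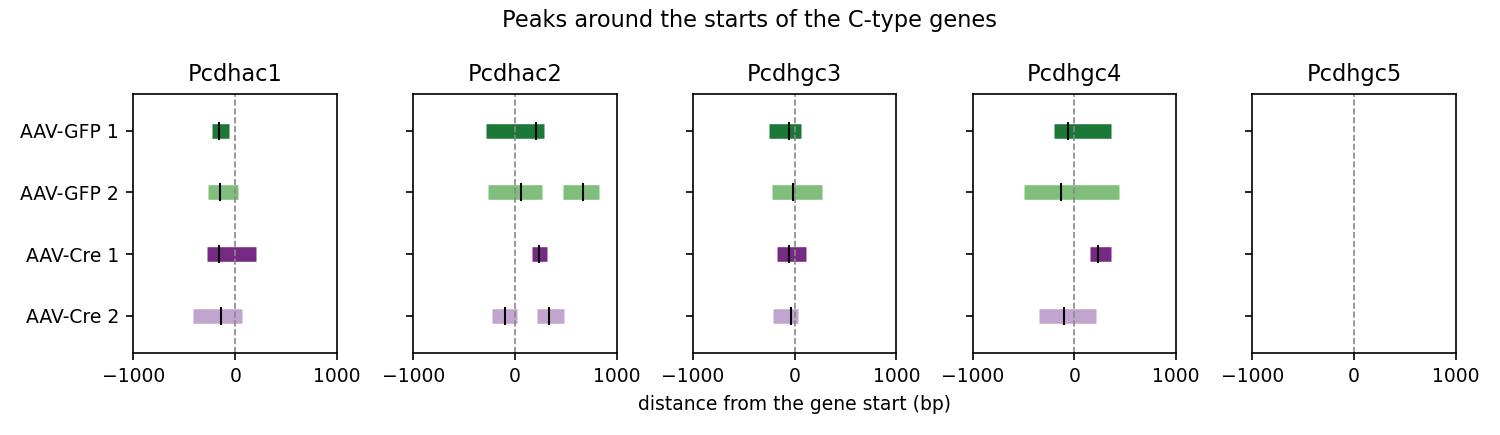
Peaks (bars) and their summits (black ticks) are drawn by library against the distance from the start of each C-type gene in bp, out to 1000 bp on each side. Pcdhac1 and Pcdhgc3 have 1 peak with a summit just below the start in each library, Pcdhac2 has 2 peaks in AAV-GFP 2 and AAV-Cre 2, and Pcdhgc5 has none.

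The Pcdha genes of random choice, Pcdha1 to Pcdha12, had no peak at or near their starts. A stretch of 288 kb from 36802003 to 37089724, which ends at the Pcdhac1 region, was free of peaks in every library and contained all 12 of their starts. It also contained the 100 kb below the array. In the genome 1.53% of the 67278 stretches between neighbouring regions were as long or longer.

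The Pcdhb array was free of peaks in every library from end to end. The stretch around it ran for 426 kb, from 37218486 to 37644032, and held all 22 Pcdhb genes and Slc25a2, which encodes a mitochondrial ornithine carrier. Only 0.757% of stretches in the genome, 509 of 67278, were as long, and 14 of 2323 on chromosome 18. At least 23 protein-coding genes, a cutoff set by the count of the Pcdhb stretch itself, lay in 30 stretches. Of these, 15 were led by Olfr genes (olfactory receptors) and 3 by Vmn genes (vomeronasal receptors). The Pcdhb stretch was the shortest of these 30, and its 54.0 genes per Mb ranked 3rd among them. Stretches with fewer genes were not ranked, so both places hold only under that cutoff. Protocadherin exons resemble one another, and none of the sources used here says how reads that match several copies were treated. The absence of peaks at these starts is therefore uncertain to that extent, and its part in the counts was not tested.

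**Figure D3:**
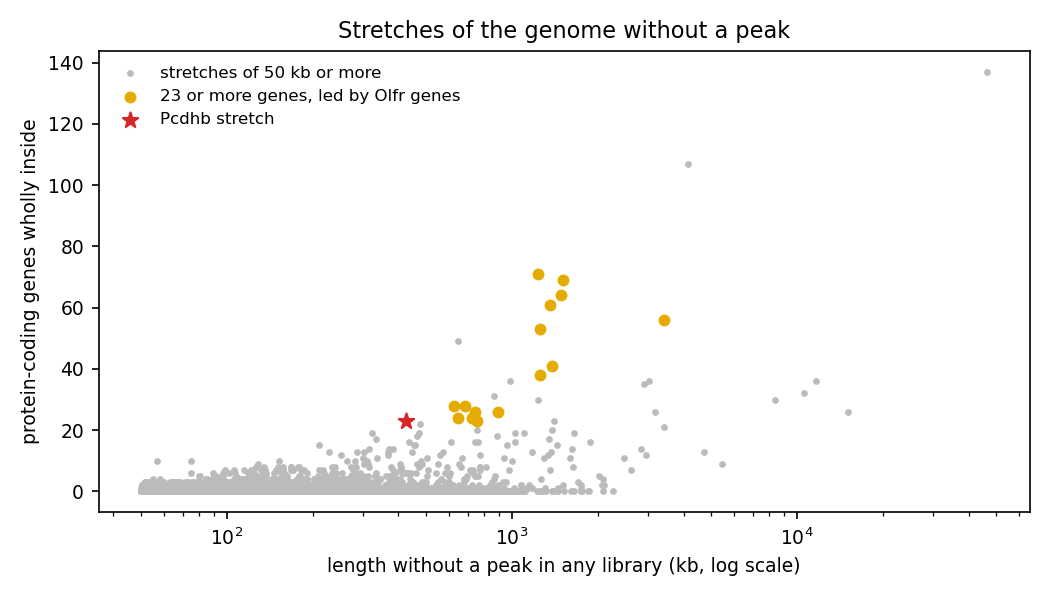
Each point is a stretch of at least 50 kb with no peak in any library, by its length (horizontal, kb, log scale) and the number of protein-coding genes wholly inside it (vertical). The Pcdhb stretch, a star at 426 kb and 23 genes, is shorter than the 15 stretches of at least 23 genes that are led by Olfr genes.

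At the 18 random-choice Pcdhg genes there were 4 start peaks, each in a lone library. Over all 17549 genes with a strand, 4.24% had a start peak in a lone library. Pcdhga3 had a start peak with a fold of 6.06 in AAV-GFP 1, and its region at 37674209 to 37674544 covers the start. Pcdhgb6 had one with a fold of 5.13 in the same library, also over the start. Pcdhga12 had one with a fold of 4.81 there, beginning 210 bp inside the gene. Pcdhgb7 had one with a fold of 4.20 in AAV-Cre 2 alone. These peaks stood at percentiles 50.5, 66.1, 60.8 and 92.7 of their own lists counted from the strongest. None of the 4 was left once list length was made equal, whereas those of Pcdhga3 and Pcdhga12 remained with −log10 q held to 5 or more. The authors' deposited group lists held none of the 4. Of the 18 Pcdhga and Pcdhgb genes, 14 had no start peak in any library.

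Between the start of Pcdhga1 and that of Pcdhgc3, 8 regions were seen, of which 7 were in a lone library. Of all 67299 regions of the genome, 23481 were in AAV-GFP 1 alone and 4002 in AAV-GFP 2 alone. AAV-Cre 1 alone held 2291 and AAV-Cre 2 alone 3101. The exception among the 8 lay 2609 bp past the start of Pcdhga12, at 37768189 to 37768393, with a fold of 5.69 in AAV-GFP 1 and 5.74 in AAV-Cre 2. AAV-GFP 2 had a peak of its own just below it, with a fold of 3.44. The authors' deposited control group list held 1 peak over both, with a fold of 5.58. The list for the AAV-Cre group had none there.

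**Figure D4:**
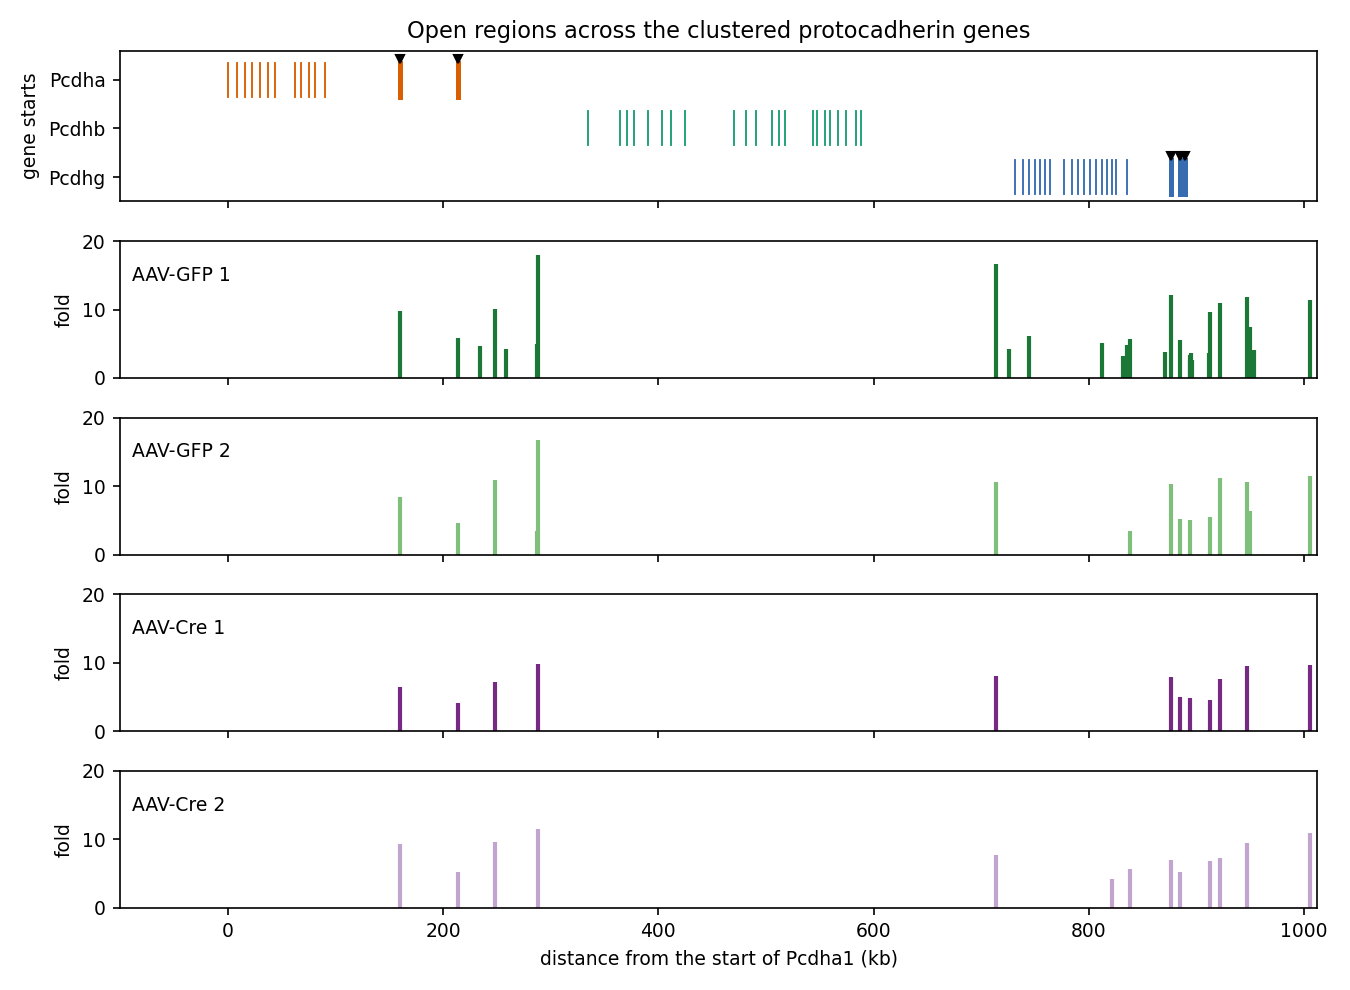
Gene starts of the 3 families (top, C-type genes marked by triangles) and the fold enrichment of each region in the 4 libraries are drawn against the distance from the start of Pcdha1 in kb. Regions lie around the C-type genes, between the arrays and past Pcdhg. Another 8 lie between the starts of Pcdhga1 and Pcdhgc3, of which AAV-GFP 1 holds 6. Nothing is drawn over Pcdha1 to Pcdha12 or over the Pcdhb genes.

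Of the 30 regions of the span, 11 had a peak in all 4 libraries, which is 36.7% against 21.7% of all regions of the genome. They were wider than the others, with a median of 569 bp against 181 bp. Joining peaks makes a region at least as wide as its widest peak, so part of this follows from the number of libraries. The starts of C-type genes held 4 of the 11, and 7 lay away from any protocadherin start. Another 15 regions were seen in a lone library, 13 of them in AAV-GFP 1, which has the longest list. These were 13 of the 28 regions of AAV-GFP 1 in the span, and over the genome 41.8% of its regions were in it alone.

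The strongest region of the span by fold lay 28.9 kb past the end of the Pcdha array, in the gap before Pcdhb, at 37217805 to 37218485. Its folds were 17.9 and 16.8 (AAV-GFP) against 9.80 and 11.6 (AAV-Cre), with no overlap between the groups. That order of folds was found at 53.6% of the regions shared by all libraries in the genome. The authors' deposited group lists gave the region past Pcdha folds of 19.7 and 13.6. Its rank percentile within the library's own list was 1.65 and 3.69 (AAV-GFP) against 13.8 and 6.37 (AAV-Cre). Lists of unlike length make these percentiles hard to compare, and its ranks over a common set are given further on.

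Inside the shared part of the Pcdha array, a region at 37178322 to 37178837, 34.6 kb past the start of Pcdhac2, had a peak in all 4 libraries. It had folds of 10.1 and 10.9 (AAV-GFP) against 7.22 and 9.56 (AAV-Cre). These values were higher than those of Pcdhac2 in the same library in all 4 libraries. Which of the regions, if any, correspond to known protocadherin enhancers was not tested.

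Between the Pcdhb and Pcdhg arrays, a region at 37644033 to 37644518 covers the upper end of Taf7, which encodes a subunit of the general transcription factor TFIID. It had folds of 16.7 and 10.6 (AAV-GFP) against 8.08 and 7.73 (AAV-Cre), so AAV-GFP 1 was the high library and the folds did not overlap. That order of folds was found at 53.6% of the regions shared by all libraries in the genome. Ranked over that common set, as described further on, the Taf7 region stood at percentiles 19.4 and 43.9 against 39.4 and 50.3, where the groups overlapped.

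Past the Pcdhg array, 4 regions with a peak in all 4 libraries lay within 100 kb, in and around Diaph1, a formin that nucleates actin filaments. The region nearest the array, at 37842464 to 37843359, lay 591 bp past the shared end of the Pcdhg genes and within 1 kb of the lower end of Diaph1. It had folds of 9.71 and 5.56 (AAV-GFP) against 4.55 and 6.86 (AAV-Cre), which overlapped. With −log10 q held to 5 or more it had no peak in AAV-Cre 1, where its −log10 q was 4.60. The region 10.2 kb past the array, at 37852100 to 37852571, had 11.0 and 11.2 against 7.58 and 7.27. The region 35.3 kb past it, at 37877193 to 37877507, had 11.8 and 10.6 against 9.48 and 9.48. The 4th, at 37935187 to 37935755 on the upper end of Diaph1, had 11.4 and 11.5 against 9.65 and 10.9. Across the span both controls had higher folds than both AAV-Cre libraries in 7 of the 11 regions, against 53.6% of the 14634 regions shared by all libraries in the genome. The reverse was found in 0 of 11, against 4.12%, and these shares were computed after the folds had been seen.

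**Figure D5:**
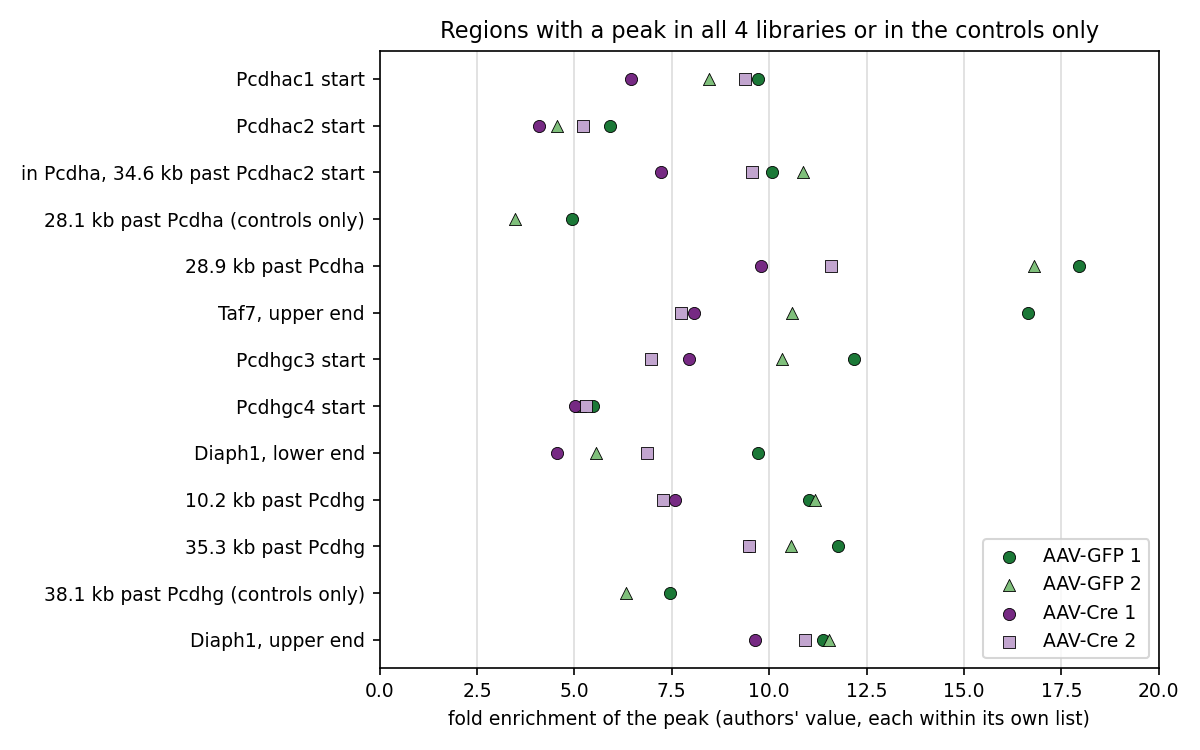
Fold enrichment (horizontal axis, the authors' value within each list) is drawn by library for the 11 regions with a peak in all 4 libraries and the 2 with a peak in the controls alone. The region 28.9 kb past Pcdha reaches the highest folds, and the 4 values of the Pcdhgc4 start lie between 5.02 and 5.48.

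To compare strength over a common set, the 14634 regions with a peak in all 4 libraries were ranked by −log10 p within each library, and percentiles were counted from the strongest. The region past Pcdha stood at 6.33 and 8.56 (AAV-GFP) against 21.8 and 11.5 (AAV-Cre). The start of Pcdhgc3 stood at 27.8 and 30.6 against 35.1 and 51.0, and the region 10.2 kb past Pcdhg at 23.8 and 18.5 against 35.7 and 37.0. In these 3 of 11 regions both controls ranked stronger than both AAV-Cre libraries. Over the genome 19.7% of shared regions did so.

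The opposite order was found in 3 of 11 regions, against 19.8% over the genome. The start of Pcdhgc4 stood at 73.9 and 69.9 (AAV-GFP) against 66.3 and 68.3 (AAV-Cre). The region 35.3 kb past Pcdhg stood at 16.9 and 16.6 against 13.7 and 15.8, and the upper end of Diaph1 at 18.1 and 14.4 against 13.3 and 10.9. At the latter pair the folds were higher in the controls but the ranks were stronger after AAV-Cre. The remaining 5 regions overlapped, among them Pcdhac1 at 65.5 and 62.6 against 63.4 and 32.0, and Pcdhac2 at 85.8 and 94.2 against 97.7 and 82.0. Counts of 3 and 3 among 11 do not set these regions apart from the genome.

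Regions that followed the groups were few. A peak in both AAV-GFP libraries and in neither AAV-Cre library was found in 2 of 30 regions, against 11.5% of all regions, and both lay outside the arrays. The converse was found in 0 of 30, against 1.18%. Without AAV-GFP 2 the control-specific count was 15, since it then rested on AAV-GFP 1, and without AAV-Cre 1 the Cre-specific count was 1, the peak at Pcdhgb7.

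The stronger of these lay inside Diaph1, 38.1 kb past the end of the Pcdhg array, at 37880005 to 37880540. It had folds of 7.45 and 6.32 in the controls, with a −log10 q of 23.1 and 14.3, and no peak in either AAV-Cre library. The authors' deposited control group list gave it a fold of 7.54. The list for the AAV-Cre group had none there. It stood at percentiles 12.7 and 23.5 of the control lists. It stayed control-specific when list length was made equal and when −log10 q was held to 5 or more. A region under 3 kb away, the one 35.3 kb past the array, had a peak in all 4 libraries.

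The weaker one lay at 37217024 to 37217527, beside the strong region past Pcdha, with folds of 4.94 and 3.47 in the controls. Its peak in AAV-GFP 2 ranked at percentile 97.2 of its list. With list length made equal it had no peak in any library, and with −log10 q held to 5 or more it had one in AAV-GFP 1 alone.

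Libraries differed in how many of the 30 regions they held. AAV-GFP 1 held 28 and AAV-GFP 2 held 15, whereas AAV-Cre 1 held 12 and AAV-Cre 2 held 13. Controls averaged 21.5 ± 9.19 regions (SD, n = 2) and AAV-Cre libraries 12.5 ± 0.707 (SD, n = 2). The difference of 9 had a 2-sided exact permutation p of 0.333, the smallest that 2 against 2 libraries allow. The span made up a like share of each library's regions, at 0.0498% and 0.0448% (AAV-GFP) against 0.0529% and 0.0500% (AAV-Cre). Group means stood in a ratio of 1.72 in the span and 1.84 over the genome. In the authors' deposited group lists the span held 15 peaks for the controls and 11 for AAV-Cre, and the 11 fell on the 11 regions of all 4 libraries.

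Genes that act with the protocadherins were read by a window of 1 kb around both outermost ends of the gene. Over all 21887 genes, 41.4% had an end peak in all 4 libraries, 3.09% in the controls alone and 0.0868% in the AAV-Cre libraries alone. Of 22 genes of chromatin architecture and silencing at the clusters, 10 had a peak in all 4 libraries and 0 followed the groups. No library had a peak at 7 of them: Rad21, Stag1, Nipbl, Wapl, Dnmt1, Dnmt3a and Tet1. The share of all genes without an end peak was not computed. Smchd1, a repressor of the clusters, had folds of 12.9 and 12.6 (AAV-GFP) against 10.5 and 8.30 (AAV-Cre). Smc3, a cohesin subunit, had 10.02 and 15.5 against 7.11 and 11.5. Ctcf had 6.96 and 6.53 in the controls and 5.01 in AAV-Cre 2, with no peak in AAV-Cre 1. Of 16 signalling partners 9 had a peak in all 4 libraries and 0 followed the groups, and Fyn, a Src-family kinase, had the highest folds, at 19.4 and 19.1 against 12.4 and 17.7.

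The non-clustered protocadherins lie outside the arrays, on several chromosomes. An end peak in all 4 libraries was found at 7 of 14 of them. Pcdh10 had folds of 9.68 and 9.48 (AAV-GFP) against 6.28 and 8.33 (AAV-Cre). Pcdh17 had 9.91 and 9.06 against 5.32 and 5.61. Pcdh1, which lies above the clusters on chromosome 18, had 5.54 and 8.20 against 5.17 and 6.20. Cdhr1, a photoreceptor cadherin, was the lone member seen in the controls only (7.15 and 4.22). Of 19 classical cadherins 5 had a peak in all 4 libraries, among them Cdh2, the neural cadherin (7.60 and 6.64 against 4.98 and 5.97), and Cdh12 was seen in the controls only (4.66 and 5.82).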

How the data were processed

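ATAC-seq peak lists of 4 libraries and 2 groups were used as the authors deposited them. The submitters' processing notes name Bowtie2, MACS2, FastQC and Trim Galore with build mm10. Their versions, read filters and peak cutoff are not given in the sources used. In the deposited lists the score is derived from −log10 q, the fold is the authors' ratio of signal to background. The −log10 p and −log10 q of a peak are theirs too. Positions are printed 1-based.

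Regions, start windows of 1 kb to each side, ranks and stretches without peaks were computed with Python 3.11.15 and pandas 2.3.3; merging was tested on simulated data. RefSeq (GRCm38.p6) gave gene ends. Strand was given for only part of the genes off chromosome 18, and the members were taken as plus strand. The 17549 genes with a strand include the members, and genes without one have no start here. Gene starts are outermost starts. No sequence of the members was used here.

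The members, the gene lists and the naming rule were chosen with earlier results of these data known. Every member with a start peak was named, with regions by the number of libraries and then rank, every region that followed the groups, and list genes that did so; other list genes, Otp and Avp were named after their values were seen. Alternatives were equal list length (23384 peaks), a −log10 q of 5 or more, 50% overlap, other windows, the arrays alone, the group lists, a replicate block and each library left out.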

Additional observations from a re-analysis of the deposited data

How the results depend on the processing

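The call of 4 genes with a start peak in all 4 libraries came to 3 or 4 in every alternative run. Genes with a start peak in at least 1 library, 8 as reported, came to 4 in lists of equal length and to between 5 and 8 without a library. Control-specific regions of the span, 2 as reported, came to 1 with list length made equal, 1 with −log10 q held to 5 or more, 1 where peaks had to overlap by 50% of the shorter, 0 in the arrays without 100 kb to each side, 4 with the authors' group lists, and 2 to 15 without a library. Cre-specific regions stayed at 0 except for 1 without AAV-Cre replicate 1. The difference in regions per library, 9 as reported, was 0 at equal list length, a setting that draws counts together by construction, and 2.5 to 15.5 without a library. Where fewer libraries or peaks entered, the alternative itself makes the counts move; for the rest the cause was not tested.

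Replicate numbers 1 and 2 occur in both groups, and nothing says that they mark shared animals or batches. With the replicate block the difference stayed at 9, with an exact permutation p of 0.5, the smallest that 2 pairs allow, and the counts of 2, 0, 4 and 8 were the same by construction. The share of regions in common was 0.319 and 0.476 for libraries of the same number and 0.353 and 0.451 for other pairs across the groups, which gave no ground for pairing. Depth is unknown, and a missing peak does not show closed chromatin.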

Other observations

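RefSeq also lists 3 protein-coding genes, Gm37013, Gm38666 and Gm38667, that start beside Pcdha4, Pcdha6 and Pcdha7 and end with the Pcdhg array. They fell outside the naming rule, and their starts lie in the stretch of 288 kb without a peak. Pcdhgb8, listed as a transcribed pseudogene, had a peak 107 bp below its start in AAV-GFP 1 alone, with a fold of 3.14. Between the Pcdhgc5 start and the end of the array, a region at 37824284 to 37824559 had a peak in 3 libraries, with folds of 3.37 and 5.06 in the controls and 4.89 in AAV-Cre 1.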
